A study of Mus musculus with 20 samples.

Results

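Malat1, Neat1, Meg3, Rian, Mirg, H19, Kcnq1ot1, Gas5, Snhg1 and Miat are long noncoding RNAs, and they were chosen by name as 10 of the 55416 genes in the count table. Each was found once, through its Ensembl identifier, and 9 of the 10 had enough counts to be tested. The libraries came from wild-type male C57BL/6J mice of 26 to 28 months. All 20 mice were fasted and received a single injection into the right quadriceps. This muscle was collected 3 h later for sequencing of total RNA depleted of ribosomal RNA. Control mice (n = 10, libraries 1 to 10) received 50 µL of 0.9% saline. Secretome mice (n = 10, libraries 11 to 20) received 50 µL of a cell-free product diluted in saline. The product was concentrated from the medium of partially differentiated human embryonic stem cells. The comparison asks how muscle transcripts differ soon after such an injection. Each library was 1 mouse, so the spread between libraries holds that between animals and that of handling, which cannot be told apart.

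Long noncoding RNAs are transcripts without a protein product. Malat1 and Neat1 stay in the nucleus, where Malat1 gathers in splicing speckles and Neat1 is the scaffold of paraspeckles, bodies that hold RNA-binding proteins. Meg3, Rian and Mirg are read from the maternal chromosome of the Dlk1-Dio3 imprinted locus, H19 is the maternally expressed neighbour of Igf2, and Kcnq1ot1 is read from the paternal chromosome, antisense to the potassium channel gene Kcnq1, and silences its neighbours. Gas5 and Snhg1 carry small nucleolar RNAs (snoRNAs) in their introns, and their spliced products are removed by nonsense-mediated decay. Miat is a nuclear transcript known from heart and nervous tissue.

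Small regulatory RNAs lie inside several of these genes. RefSeq (GRCm38.p6) held 37 mature microRNAs within the spans of Meg3, Rian, Mirg and H19, 26 of them in Mirg, with 36 different seeds. These 6 are given as examples from each host and include the pair with a shared seed, miR-453 and miR-496a-5p, both in Mirg. Capitals mark the seed, bases 2 to 8.
miR-770-5p in Meg3: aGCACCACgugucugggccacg
miR-370-3p in Rian: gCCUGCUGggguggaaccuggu
miR-453 in Mirg: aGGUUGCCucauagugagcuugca
miR-496a-5p in Mirg: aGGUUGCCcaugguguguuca
miR-675-5p in H19: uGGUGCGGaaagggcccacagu
miR-675-3p in H19: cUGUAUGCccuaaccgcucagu
The libraries measured the hosts and not these products. Over all 20 libraries the 3 microRNA genes inside Rian that were in the table had 31 counts in all, the 14 inside Mirg had 31, and the 1 inside H19 and the 2 inside Meg3 were at 0. The snoRNA genes inside Gas5 (9 in the table) and Snhg1 (8 in the table) were also at 0 in every library, and of 8 inside Rian 7 were at 0 and 1 was not, with 9 counts in all.

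The start regions are shown for Meg3, the first gene of its maternal transcripts, and for the 2 snoRNA hosts. RefSeq promoter windows (GRCm38.p6, 250 bases before to 50 bases from the start) were found for 8 of the 10 genes. Meg3 and Gas5 each had more than 1 annotated start, of which 1 is shown. The stretches run from 80 bases before the start to 30 bases from it. In the Meg3 and Gas5 lines capitals mark TGACGTCA, the cAMP response element, which reads the same on both strands. In the Gas5 and Snhg1 lines capitals also mark the run of pyrimidines that begins with C at the start. Transcripts of the 5′ terminal oligopyrimidine kind open with such a run. It has 5 bases in Gas5 and only 3 in Snhg1, too short to be named so here.
Meg3, chr12:109540916-109541025, plus strand: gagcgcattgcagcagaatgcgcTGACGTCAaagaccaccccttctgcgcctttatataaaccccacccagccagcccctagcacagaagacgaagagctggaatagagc
Gas5, chr1:161035086-161035195, plus strand: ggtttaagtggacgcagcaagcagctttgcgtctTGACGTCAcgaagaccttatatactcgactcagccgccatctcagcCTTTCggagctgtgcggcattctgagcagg
Snhg1, chr19:8723407-8723516, plus strand: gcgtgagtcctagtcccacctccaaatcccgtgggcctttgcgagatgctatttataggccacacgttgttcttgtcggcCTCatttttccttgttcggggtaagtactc
TGACGTCA was in 1.79% of the 32851 windows. Among the windows of these genes it was in those shown for Meg3 and Gas5, where its first base lay 57 and 46 bases before the start. A start of at least 5 pyrimidines that begins with C was in 2.51% of windows, in that shown for Gas5 and in that of Miat. A start of at least 3 was in 5.81% and was also met by Snhg1 and Mirg. The other annotated starts of Meg3 and Gas5 had no TGACGTCA in the same stretch, and that of Gas5 had no such pyrimidine run. A match is a description of letters and not of a bound factor.

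Library totals ran from 13286983 to 22987237 counts. Ttn, which encodes the sarcomere protein titin, took 7.02% to 11.03% of counts in libraries 1 to 5, 16.4% to 21.1% in libraries 6 to 15 and 14.2% to 14.7% in libraries 16 to 20, and values are therefore also given by these ranges. The labels name no batch, and only libraries 6 to 15 hold both treatments (control replicates 6 to 10 and secretome replicates 1 to 5). For libraries 1 to 5 and 16 to 20 the treatment and the range cannot be told apart. Of 8 myofibre markers none was at 0 in all libraries, and in CPM (counts scaled to a common library size) they summed to 133303 to 198805 in control libraries 1 to 5, 244753 to 334338 in control libraries 6 to 10, 274633 to 322466 in secretome libraries 11 to 15 and 217610 to 288539 in secretome libraries 16 to 20. Ttn is among the 8, and the ranges were drawn from its share. A difference of these sums between the control ranges is therefore partly built in. Of the other markers Myh4 was called higher and Pvalb lower between the control ranges, beside 2.16% and 3.39% of all tested genes. The part of Myh4 and Pvalb in the differences by range was not tested.

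Levels spanned more than 4 orders of magnitude. Per length of exon, Malat1 stood first in controls at 1463 ± 149 CPM per kb (SD, n = 10), and it was the gene with rank 10 of the table by CPM, with 0.996% of all counts on average. Neat1 followed with a mean of 114 CPM per kb and H19 with 79.95, and these neighbours overlapped between mice. Gas5 (6.13 CPM per kb) stood below H19 and above Kcnq1ot1 (2.32) without overlap, and Kcnq1ot1 overlapped with Snhg1 (1.95). Meg3 was at 0.621, Rian at 0.381, Mirg at 0.111 and Miat at 0.0684 CPM per kb, each overlapping with the next. Kcnq1ot1 reached 216 ± 44.3 CPM in controls only as a long transcript of 93.092 kb, while its sense partner Kcnq1 had 1.04 ± 0.242 CPM. The libraries were stranded, but the strand setting of the counting is not given in the sources used here, so reads of these antisense partners may not be separated.

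**Figure D1:**
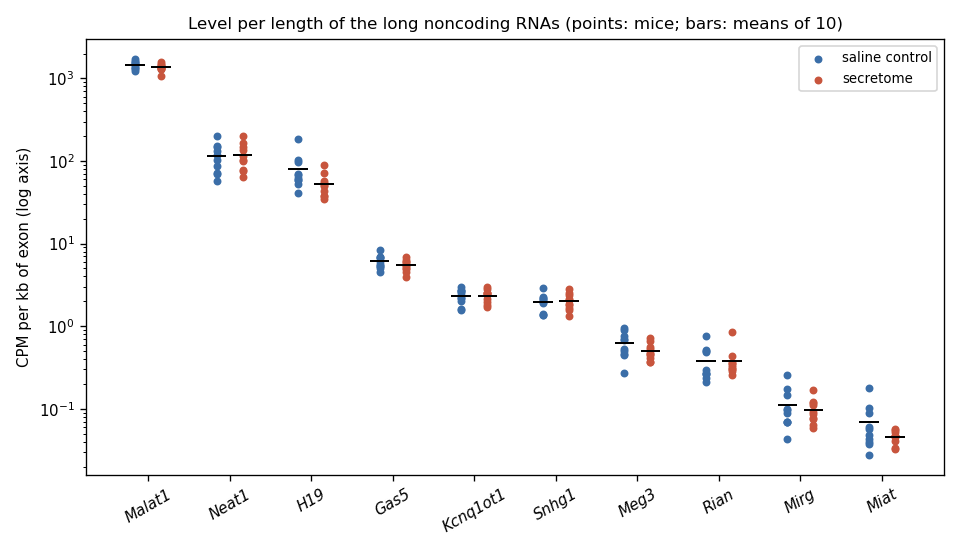
Level of each of the 10 long noncoding RNAs in CPM per kb of exon on a log axis, with 1 point per mouse, controls in blue, secretome mice in red, and bars at the means of 10. Malat1 lies above every other gene with a control mean of 1463 CPM per kb, and Miat is lowest at 0.0684.

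The nuclear RNA Malat1 was the steadiest of the 10, with a coefficient of variation of 10.6% over all libraries. In controls it ranged from 8591 to 11952 CPM with a median of 10223, and in secretome mice from 7390 to 11034 with a median of 9517. The groups overlapped over most of their range. The mean was 9553 ± 994 vs. 10220 ± 1039 CPM in secretome and control mice, a log2 fold change of -0.10 (95% interval -0.29 to 0.094, edgeR adjusted p = 0.622). In libraries 6 to 15 the log2 fold change was -0.0049 (interval -0.24 to 0.23, edgeR adjusted p = 0.989).

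Neat1, which lies beside Malat1 on chromosome 19, did not pass the test for the treatment. The values 1192, 2299 and 4189 CPM were the lowest, median and highest control values, and 1344, 2239 and 4200 CPM those of secretome mice. The log2 fold change was 0.06 (interval -0.42 to 0.53, edgeR adjusted p = 0.923) over all libraries and 0.04 (interval -0.33 to 0.40, edgeR adjusted p = 0.949) in libraries 6 to 15. Within each treatment its values differed by range instead. Control libraries 1 to 5 had 1192, 2167, 1487, 1430 and 1800 CPM, and control libraries 6 to 10 had 4189, 2716, 3144, 2432 and 3112 CPM. All values of the second range were above all values of the first, as for Meg3 in the other direction, while the control ranges of 4.74% of all tested genes were apart.

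Secretome mice were split the same way for Neat1. Libraries 11 to 15 had 2801, 3094, 3405, 4200 and 2359 CPM, and libraries 16 to 20 had 1344, 1626, 1567, 2119 and 2073 CPM, again without overlap. Of the 10 genes, Neat1 and Rian had secretome ranges that were apart, beside 2.74% of all tested genes. Between the control ranges the log2 fold change was 0.95 (SE 0.188, edgeR adjusted p = 0.0046), and between the secretome ranges it was 0.86 (SE 0.188, edgeR adjusted p = 0.0573, unadjusted p = 1.5e-04). The difference between these values was -0.09 (interval -0.63 to 0.46, edgeR adjusted p = 0.937). The secretome contrast passed the threshold when control replicate 2, control replicate 9 or secretome replicate 9 was left out (edgeR adjusted p = 0.0349, 0.0487 and 0.04701).

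A contrast added after these values were seen set libraries 6 to 15 against the others, as the mean over both treatments. Neat1 was higher by 0.91 on the log2 scale (SE 0.133, interval 0.63 to 1.18, edgeR adjusted p = 3.9e-04), and all 10 libraries of the middle range, 2359 CPM and above, exceeded all 10 others, 2167 CPM and below. The ranges of 0.166% of all tested genes were apart in this way. As a ratio of counts within a library, which no scaling touches, Neat1 was 15.4% ± 2.29 of Malat1 in control libraries 1 to 5, 31.4% ± 8.44 in control libraries 6 to 10, 32.2% ± 7.89 in secretome libraries 11 to 15 and 19.6% ± 6.07 in secretome libraries 16 to 20 (SD, n = 5 each). Titin, from whose share the ranges were drawn, was at 82407 ± 18323 CPM in control libraries 1 to 5 and 203823 ± 28973 in control libraries 6 to 10. The part of titin in the Neat1 values was not tested.

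**Figure D2:**
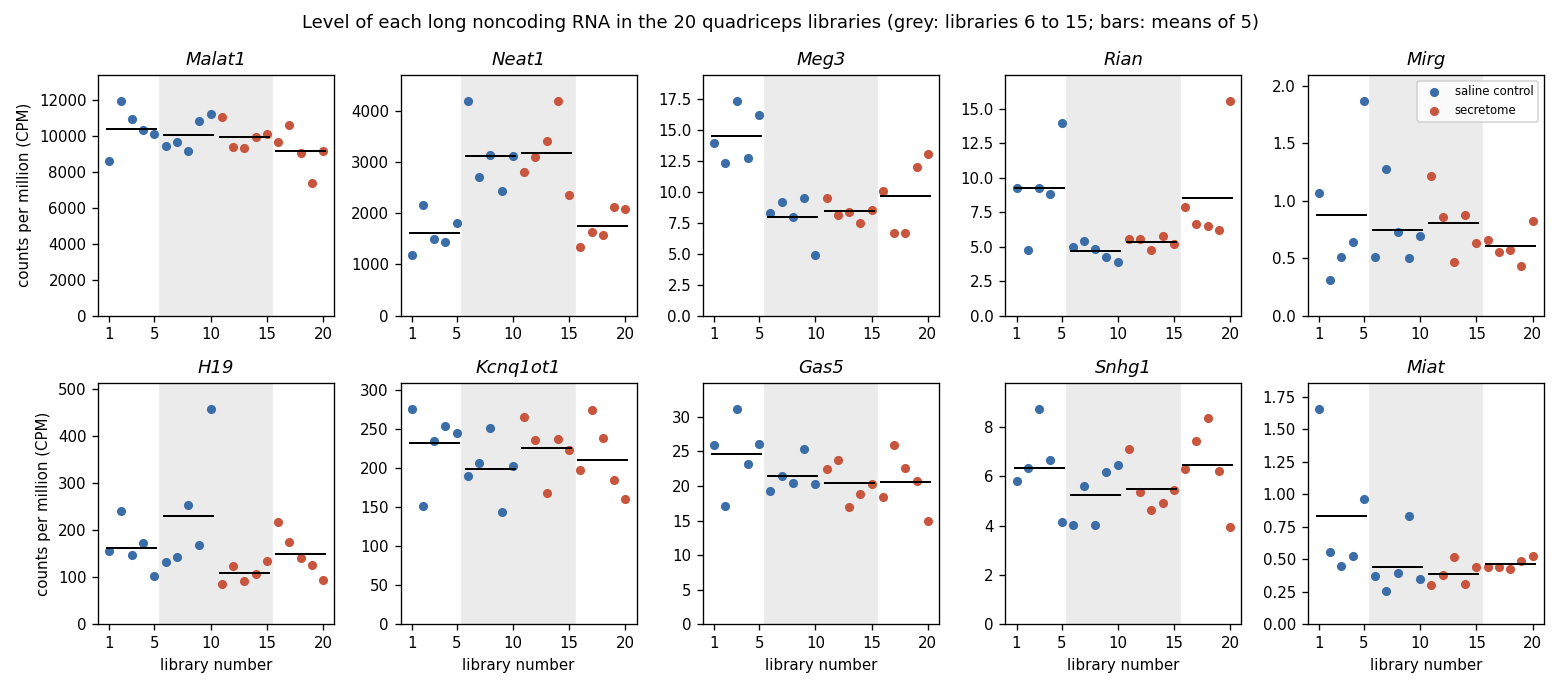
CPM of each of the 10 genes against library number, with 1 point per mouse (blue: saline control, red: secretome), grey shading over libraries 6 to 15 and bars at the means of 5 libraries. Neat1 is at 2359 CPM or above in all 10 shaded libraries and at 2167 or below in the rest, while Malat1 shows no such step.

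Of the maternal transcripts of the Dlk1-Dio3 locus, none passed the test for the treatment. Meg3, which has been described as a growth suppressor, had 4.87, 10.9 and 17.4 CPM as the lowest, median and highest control values and 6.66, 8.48 and 13.1 CPM in secretome mice. The secretome values lay inside the control range. The log2 fold change was -0.31 (SE 0.184, edgeR adjusted p = 0.410) over all libraries and 0.09 (SE 0.166, edgeR adjusted p = 0.850) in libraries 6 to 15. Rian, a host of box C/D snoRNAs, had 3.89, 5.19 and 13.9 CPM in controls and 4.74, 6.00 and 15.6 CPM in secretome mice, with a log2 fold change of 0.0017 (SE 0.242, edgeR adjusted p = 0.998). Mirg, the microRNA host at the end of the cluster, had 5 to 33 counts per library, or 0.810 ± 0.469 CPM in controls and 0.707 ± 0.238 in secretome mice (log2 fold change -0.21, interval -0.80 to 0.38, edgeR adjusted p = 0.749).

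Meg3 and Rian were both lower in control libraries 6 to 10 than in 1 to 5. Meg3 had 13.9, 12.3, 17.4, 12.8 and 16.2 CPM in control libraries 1 to 5 and 8.26, 9.17, 8.00, 9.49 and 4.87 CPM in control libraries 6 to 10, without overlap (log2 fold change -0.87, SE 0.193, edgeR adjusted p = 0.0102). Rian had 9.24, 4.78, 9.28, 8.81 and 13.9 CPM in the first range and 4.97, 5.40, 4.83, 4.27 and 3.89 CPM in the second (log2 fold change -0.98, SE 0.250, edgeR adjusted p = 0.0237). The overlap for Rian came from control replicate 2 alone, and its call was lost without control replicate 5, 8 or 10 (edgeR adjusted p = 0.0710, 0.0510 and 0.05573). Mirg did not pass between these ranges (log2 fold change -0.25, SE 0.403, edgeR adjusted p = 0.790).

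In secretome mice neither gene passed between the ranges. Rian had 5.53, 5.53, 4.74, 5.80 and 5.21 CPM in libraries 11 to 15 and 7.90, 6.60, 6.48, 6.21 and 15.6 CPM in libraries 16 to 20, and these did not overlap (log2 fold change -0.67, SE 0.248, unadjusted p = 0.0131, edgeR adjusted p = 0.358). Meg3 had 9.54, 8.17, 8.39, 7.49 and 8.57 CPM in the first and 10.0, 6.66, 6.71, 11.98 and 13.1 CPM in the second (log2 fold change -0.20, SE 0.193, edgeR adjusted p = 0.858). The Meg3 contrast differed from that of the controls by 0.67 (SE 0.272, unadjusted p = 0.0231, edgeR adjusted p = 0.349), a difference that failed the correction. Over both treatments, libraries 6 to 15 were lower by log2 values of -0.53 for Meg3 (SE 0.136, edgeR adjusted p = 0.0272) and -0.82 for Rian (SE 0.176, edgeR adjusted p = 0.0087). The Meg3 call was lost without secretome replicate 10 (edgeR adjusted p = 0.0571).

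Markers of fibroblasts and fibro-adipogenic progenitors also differed by range. Of 6 markers, 4 were lower in control libraries 6 to 10 than in 1 to 5 (Pdgfra, Dcn, Col3a1 and Lum), beside 3.39% of all tested genes, with a median log2 fold change of -1.34 over the list, against -0.02 over all tested genes. Their summed level was 716 to 966 CPM in control libraries 1 to 5, 205 to 444 in control libraries 6 to 10, 280.0 to 391 in secretome libraries 11 to 15 and 468.5 to 596 in secretome libraries 16 to 20. Between the secretome ranges 0 of the 6 were called. There 3 were lower in libraries 11 to 15 at an unadjusted p under 0.05, beside 4.79% of all tested genes. None of the 6 was at 0 in every library. In the contrast of libraries 6 to 15 against the others the same 4 were called lower, as were 2 of 5 macrophage markers (Csf1r and Mrc1, list median -0.66) and Pmp22 of 5 Schwann cell markers, beside 3.19% of all tested genes. Pmp22 was also called lower between the control ranges. The median of the Schwann cell list lay above 0, at 0.15 for libraries 6 to 15 against the others and 0.19 between the control ranges. Of 5 adipocyte markers 0 were called for libraries 6 to 15 against the others (list median -0.80). At an unadjusted p under 0.05, 3 of the 5 were lower there, beside 10.5% of all tested genes. The part of these markers in the Meg3 and Rian values was not tested, and in bulk muscle fewer cells of a type and less RNA per cell cannot be told apart.

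H19, an abundant maternal transcript of muscle that carries miR-675, was the only one of the 9 tested genes with an unadjusted p under 0.05 for the treatment. Controls had 102, 161 and 457 CPM as the lowest, median and highest values, and secretome mice had 85.5, 124 and 218 CPM. The secretome values were lower on the whole and overlapped widely with the controls. The mean was 129 ± 40.8 vs. 197 ± 102 CPM, a log2 fold change of -0.60 (SE 0.229, interval -1.08 to -0.13, unadjusted p = 0.0151), which failed the correction (edgeR adjusted p = 0.226, and 0.141 to 0.789 over all other settings). At that unadjusted threshold, 15.7% of all tested genes passed, and 9.21% passed as lower.

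H19 was also lower in value after secretome in libraries 6 to 15. The controls had 131, 144, 253, 168 and 457 CPM and the secretome mice 85.5, 123, 92.7, 107 and 135 CPM. The groups overlapped only between the lowest control and the highest secretome mouse. The log2 fold change was -1.08 (SE 0.331, interval -1.81 to -0.35, unadjusted p = 0.0079), with an adjusted p of 0.438 by edgeR and 0.0669 by DESeq2. The value of 457 CPM came from control replicate 10. Without it the log2 fold change was -0.66 in libraries 6 to 15 (unadjusted p = 0.0052, edgeR adjusted p = 0.257) and -0.37 over all libraries (unadjusted p = 0.0474, edgeR adjusted p = 0.271).

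Between secretome libraries 16 to 20 (218, 174, 140.0, 126 and 93.5 CPM) and control libraries 1 to 5 (155, 240.0, 146, 172 and 102 CPM) the log2 fold change of H19 was -0.12 (SE 0.300, edgeR adjusted p = 0.854). The 2 treatment contrasts differed by -0.97 (SE 0.425, unadjusted p = 0.034), which failed the correction (edgeR adjusted p = 0.387). Macrophage markers also ran lower after secretome, with 3 of 5 at an unadjusted p under 0.05 in all libraries and in libraries 6 to 15, and 0 past the correction by edgeR. Over all tested genes 9.21% and 4.88% were lower at that threshold. Smooth muscle and pericyte markers were lower at it for 3 of 5 in all libraries and 0 of 5 in libraries 6 to 15. In the same order it was 1 of 5 and 2 of 5 for adipocyte markers, 1 of 5 and 1 of 5 for satellite cell markers, and 1 of 8 and 0 of 8 for myofibre markers. The summed level of the macrophage markers in libraries 6 to 15 was 31.5 to 75.4 CPM in controls and 24.9 to 37.5 CPM in secretome mice, and the part of these markers in the H19 values was not tested.

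Kcnq1ot1 had lowest, median and highest values of 144, 221 and 276 CPM in controls and 160, 230 and 274 CPM in secretome mice. The ranges overlapped almost whole, with a log2 fold change of 0.02 (interval -0.24 to 0.28, edgeR adjusted p = 0.953), and 0.20 (interval -0.12 to 0.52, edgeR adjusted p = 0.655) in libraries 6 to 15. None of its range contrasts passed.

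Of the snoRNA hosts, Gas5 had 17.1, 22.3 and 31.1 CPM in controls and 14.9, 20.6 and 25.9 CPM in secretome mice (log2 fold change -0.17, interval -0.39 to 0.057, edgeR adjusted p = 0.449). Snhg1 had 4.03, 5.99 and 8.72 CPM in controls and 3.92, 5.83 and 8.37 CPM in secretome mice (log2 fold change 0.04, interval -0.27 to 0.36, edgeR adjusted p = 0.909). In both, the groups overlapped over most of their range and neither the contrast within libraries 6 to 15 nor any range contrast passed. Miat had 5 to 31 counts per library and was not tested. Its mean was 0.636 ± 0.421 CPM in controls and 0.426 ± 0.0765 in secretome mice, and the highest value, 1.66 CPM, was that of control replicate 1.

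**Figure D3:**
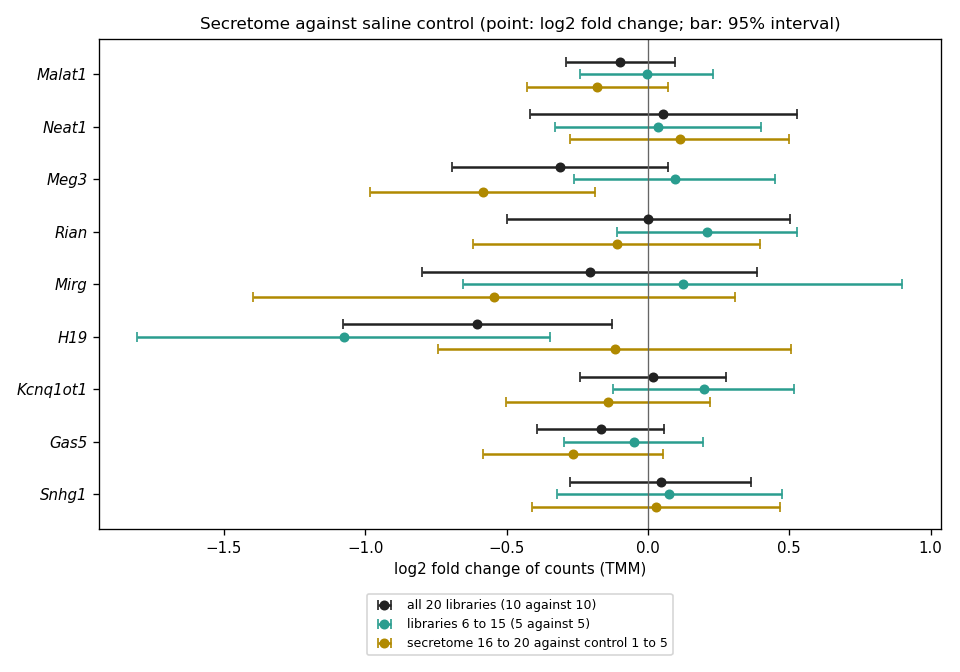
Log2 fold change of secretome against saline control for the 9 tested genes, as points with 95% intervals, over all 20 libraries, within libraries 6 to 15, and between secretome libraries 16 to 20 and control libraries 1 to 5. No contrast passed the correction, and the H19 interval lies below 0 in the first 2 (-1.08 to -0.13 and -1.81 to -0.35).

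Counted over the set, 0 of the 9 tested genes passed the 5% false discovery rate for secretome against control, in all libraries or in libraries 6 to 15, by edgeR, DESeq2 or limma voom. The background was 0.00691% of tested genes in all libraries (1 gene, Plxnb2, a semaphorin receptor) and 0% in libraries 6 to 15 by edgeR. At an unadjusted p under 0.05, 1 of 9 passed in each comparison, H19 both times, where 15.7% and 9.9% of all tested genes did. The median log2 fold change of the 9 was -0.10 in all libraries and 0.08 in libraries 6 to 15, beside -0.03 and -0.01 over all tested genes. No gene of the 9 had groups that did not overlap, where 0.0484% of tested genes did in all libraries and 1.91% in libraries 6 to 15.

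Between the control ranges 3 of 9 passed, Neat1 as higher and Meg3 and Rian as lower, beside 5.55% of all tested genes (2.16% higher and 3.39% lower). Between the secretome ranges 0 of 9 passed at the 5% false discovery rate by edgeR and 2 at an unadjusted p under 0.05 (Neat1 and Rian), beside 0.221% and 9.04% of all tested genes. Between secretome libraries 16 to 20 and control libraries 1 to 5, 0 of 9 passed and 1 had an unadjusted p under 0.05, beside 3.68% and 21.2%. That gene was Meg3, with a log2 fold change of -0.59 (SE 0.191, unadjusted p = 0.0059, edgeR adjusted p = 0.0859). For the difference of the treatment effect between libraries 6 to 15 and the others, 0 of 9 passed and 2 had an unadjusted p under 0.05 (Meg3 and H19), beside 0.0553% and 11.1%. In the added contrast of libraries 6 to 15 against the others, 3 of 9 passed beside 4.65%, again Neat1, Meg3 and Rian. These contrasts share libraries, so they are not independent of each other.

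**Figure D4:**
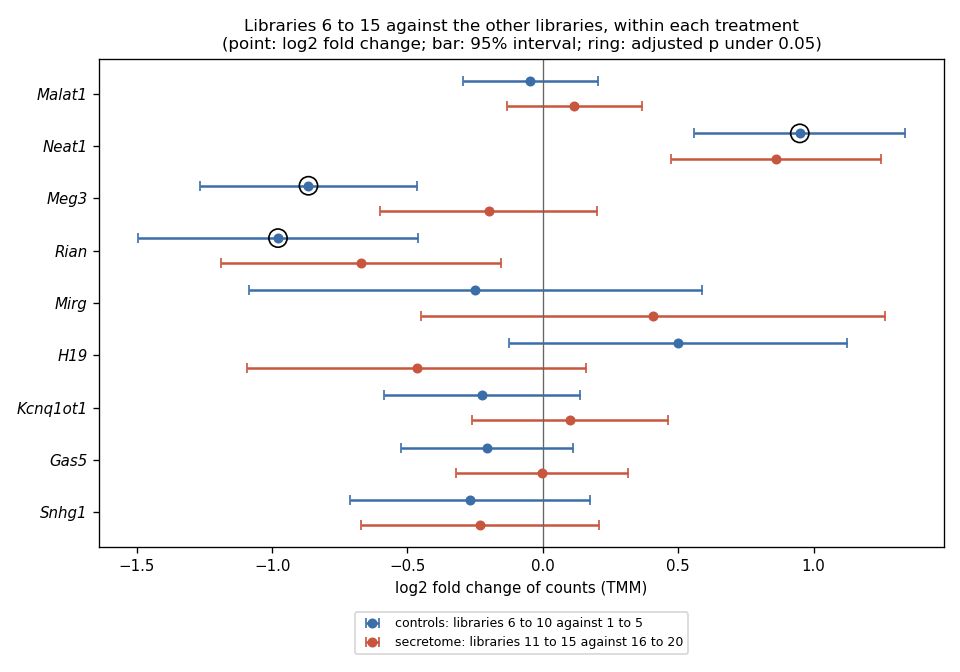
Log2 fold change of libraries 6 to 15 against the other libraries within each treatment (blue: controls, red: secretome mice), with 95% intervals and a ring where the edgeR adjusted p was under 0.05. Neat1 lies to the right in both treatments (0.95 and 0.86), Rian to the left in both (-0.98 and -0.67), and the Malat1 intervals span 0 in both.

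The same contrasts were read in the neighbours and partners of these genes. In the Dlk1-Dio3 locus 5 of 7 genes were tested and 0 passed for the treatment in all libraries by edgeR. At an unadjusted p under 0.05, where 9.21% of all tested genes were lower, 1 of the 5 was lower. That gene was Dlk1, a paternally expressed inhibitor of adipogenesis, at 0.422 ± 0.277 vs. 0.842 ± 0.422 CPM (log2 fold change -0.98, SE 0.376, unadjusted p = 0.0154, edgeR adjusted p = 0.227). Rtl1, a paternal gene with an antisense partner in the locus, was too low to test. In the H19-Igf2 and Kcnq1ot1 loci 9 of 16 genes were tested and 0 passed. At that unadjusted threshold 2 were lower, again beside 9.21% of all tested genes. These were H19, counted above, and Tssc4 (log2 fold change -0.49, SE 0.219, edgeR adjusted p = 0.282). Igf2, the paternal growth factor beside H19, had 2.64 ± 1.01 vs. 3.43 ± 1.28 CPM (log2 fold change -0.37, SE 0.238, edgeR adjusted p = 0.447), and Cdkn1c, a cell cycle inhibitor silenced through Kcnq1ot1, had 13.9 ± 3.45 vs. 17.04 ± 6.21 CPM (log2 fold change -0.30, SE 0.189, edgeR adjusted p = 0.444).

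Among 26 tested genes of other imprinted loci, 0 passed for the treatment in all libraries by edgeR. There 0 also had an unadjusted p under 0.05, beside 15.7% of all tested genes. Between the control ranges 2 were higher and 3 lower in libraries 6 to 10, beside 2.16% and 3.39% of all tested genes. Igf2r, the receptor that clears Igf2, rose from 124 ± 13.02 to 199 ± 28.7 CPM (log2 fold change 0.69, SE 0.121, edgeR adjusted p = 0.0021), and the noncoding RNA Peg13 rose from 36.5 ± 2.10 to 59.6 ± 13.6 CPM (edgeR adjusted p = 0.0048). The growth regulator Plagl1 fell from 3.78 ± 1.03 to 1.48 ± 0.342 CPM (log2 fold change -1.34, edgeR adjusted p = 0.0069), and Ndn (-1.47, edgeR adjusted p = 0.0079) and the matrix gene Dcn (-1.34, edgeR adjusted p = 0.0132) also fell. Dcn is one of the fibroblast markers counted above.

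Of 34 tested proteins of paraspeckles, the bodies built on Neat1, 0 passed for the treatment in all libraries and 5 were higher at an unadjusted p under 0.05 by edgeR, beside 6.52% of all tested genes. The 2 with the smallest p were Zfp24 (39.2 ± 5.16 vs. 32.1 ± 5.34 CPM, log2 fold change 0.29, edgeR adjusted p = 0.189) and Ss18l1 (5.31 ± 0.993 vs. 4.22 ± 1.01 CPM, log2 fold change 0.33, edgeR adjusted p = 0.283). Between the control ranges 3 were higher in libraries 6 to 10 and 0 were lower, beside 2.16% and 3.39% of all tested genes. Those higher included the chromatin remodeller Smarca4 (log2 fold change 0.49, SE 0.114, edgeR adjusted p = 0.0134) and Ss18l1 (0.62, SE 0.150, edgeR adjusted p = 0.0180). The median over the list was 0.04, beside -0.02 over all tested genes. With total counts as the only scaling, which moved the median of all tested genes in this contrast to -0.28, neither of these passed, at 0.25 and 0.36, and Peg13 did not either. Of 20 nuclear speckle proteins, where Malat1 gathers, 0 passed in either comparison of treatments by edgeR. Between the control ranges 0 passed, beside 5.55% of all tested genes. At an unadjusted p under 0.05, 2 were higher and 2 lower there, beside 8.91% and 10.9% of all tested genes. Acin1 (log2 fold change -0.17, edgeR adjusted p = 0.297) and Srsf5 (-0.18, edgeR adjusted p = 0.345) had the smallest p for the treatment in all libraries.

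Of 17 tested snoRNA hosts, 0 passed for the treatment in all libraries by edgeR and 2 were lower at an unadjusted p under 0.05, beside 9.21% of all tested genes, Epb41l4aos (1.38 ± 0.487 vs. 2.36 ± 0.900 CPM, log2 fold change -0.78, unadjusted p = 0.0031, edgeR adjusted p = 0.158) and Snhg20 (2.98 ± 0.690 vs. 4.51 ± 1.49 CPM, log2 fold change -0.59, unadjusted p = 0.0034, edgeR adjusted p = 0.161). Gas5 (-0.17) and Snhg1 (0.04) did not pass that threshold. Of 17 nonsense-mediated decay factors 0 passed and 2 were higher at an unadjusted p under 0.05, beside 6.52% of all tested genes. These were Upf2 (log2 fold change 0.26, edgeR adjusted p = 0.234) and the kinase Smg1 (0.21, edgeR adjusted p = 0.246). In control libraries 6 to 10 against 1 to 5, 2 of the 17 were higher and 1 was lower, beside 2.16% and 3.39% of all tested genes. The helicase Upf1 (0.51, edgeR adjusted p = 0.0076) and Nbas (0.44, edgeR adjusted p = 0.00437) were higher. Magoh, a part of the exon junction complex, was lower (-0.60, edgeR adjusted p = 0.0337). With total counts only, Upf1 (0.26) and Nbas (0.19) did not pass, and the Magoh call was lost without any one of 8 of the 20 libraries. Of 14 other long noncoding RNAs 0 passed and 2 were lower at an unadjusted p under 0.05, beside 9.21% of all tested genes. These were Rpph1, the RNA of ribonuclease P (1270 ± 341 vs. 2347 ± 1852 CPM, log2 fold change -0.89, edgeR adjusted p = 0.225), and Bvht (-0.53, edgeR adjusted p = 0.311). Between the control ranges 1 of the 14 was higher in libraries 6 to 10 and 3 were lower, beside 2.16% and 3.39% of all tested genes. Rmrp, the RNA of another ribonuclease, was higher (log2 fold change 1.58, edgeR adjusted p = 0.0484). The 3 lower were Jpx, an activator of Xist (-0.54, edgeR adjusted p = 0.0118), Dleu2 (-0.67, edgeR adjusted p = 0.0444) and Rpph1 (-1.33, edgeR adjusted p = 0.0494). The calls on Dleu2, Rpph1 and Rmrp were lost without any one of 13, 15 and 16 of the 20 libraries.

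Pairs of genes that share a locus or a role were compared across the 10 mice of libraries 6 to 15, with 7 pairs in the family. Rian and Mirg had the closest relation (Pearson r 0.58, permutation p = 0.0814, adjusted p = 0.260, Spearman rho 0.70, permutation p = 0.0301, adjusted p = 0.211), and r was 0.73 without the 2 libraries farthest from the median of Rian. Within libraries 6 to 15 the controls and the secretome mice are pooled. Gas5 and Snhg1 had r 0.55 (permutation p = 0.0950, adjusted p = 0.260) and rho 0.49 (permutation p = 0.153, adjusted p = 0.535), and r was 0.49 without 2 libraries. Meg3 and Rian had r 0.54 (permutation p = 0.111, adjusted p = 0.260) and rho 0.07 (permutation p = 0.864, adjusted p = 0.973), and with r at -0.58 without 2 libraries the relation within these 10 mice rests on those. Over all 20 libraries, as deviations from the means of treatment and range, r was 0.53 for this pair. Malat1 and Neat1, neighbours on the chromosome, had r -0.41 (permutation p = 0.230, adjusted p = 0.403) and rho -0.42 (permutation p = 0.231, adjusted p = 0.539), and r was -0.081 over the deviations of all 20 libraries. None of the 7 pairs passed after adjustment.

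The genes whose values ran most like those of 4 of the members were found among 13172 genes, from deviations of log2 CPM from the means of the 4 groups of treatment and range over all 20 libraries. For Malat1 they were D430013B06Rik, Sclt1 and Gm38014 (Pearson r 0.79, 0.78 and 0.78). For Meg3 they were the translation factor Eif4g1, Tmem63a and Ankrd24 (r 0.80, 0.76 and 0.76). For Gas5 they included Gnai3 and Ifi205 (r 0.86 and 0.84), and for H19 they were Camta1, 9030612E09Rik and B930086L07Rik (r 0.84, 0.76 and 0.76). These are the highest of many values over libraries that share depth and composition, and they are given as a description.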

How the data were processed

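The 20 quadriceps libraries were measured by stranded, paired RNA sequencing of total RNA depleted of ribosomal RNA. The authors deposited raw counts, whole numbers per gene without normalization, with 1 column per mouse. The submitters' processing notes name cutadapt 1.16, STAR 2.7.9a, featureCounts 1.6.3, DESeq2 1.34.0 and GRCm39. The annotation release is not given in the sources used here.

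Symbols came from GENCODE M21, which is of another build, as do exon lengths, so coordinates are printed only for the RefSeq sequences, on GRCm38.p6. Genes were filtered with filterByExpr, which kept 14471 of 55416, normalized with TMM, and tested in R 4.3.3 with the robust quasi-likelihood F-test of edgeR 4.0.16, with Benjamini-Hochberg adjustment over all tested genes at a 5% false discovery rate. To obtain a standard error, the size of each log2 value was divided by the square root of its F statistic. Treatment was the only term over all libraries and in libraries 6 to 15. Contrasts between library ranges came from 1 fit of all 20 libraries with a mean per treatment and range. The ranges were drawn from the share of Ttn, and Ttn is given with no test. CPM used TMM library sizes, and log2 CPM a prior count of 2. Library depth was between 13286983 and 22987237 counts.

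Named besides the 10 genes are the pair of lowest p in each list over all libraries, Igf2, Cdkn1c, Dlk1, Rtl1 and Ttn, and the 3 genes most like Malat1, Meg3, Gas5 and H19. Genes that passed between the control ranges, Kcnq1, Plxnb2 and fibroblast markers were named after their values were seen. The genes, the lists and the ranges were chosen with earlier results of these data known. Of the names in the lists, 11 were not matched and are not used here, and some results that the rules would name are not reported here. The alternatives were DESeq2 1.42.0, voom of limma 3.58.1, other normalizations, no filter on low counts, a 10% false discovery rate, a replicate block, the ranges as a term, and each library left out in turn. The edgeR fit was tested on simulated counts. No label pairs the mice of the 2 treatments by replicate number, and they were treated as unpaired.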

Additional observations from a re-analysis of the deposited data

Results flagged for a closer look

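In 20 groups of 10 mice (each of the 10 genes in each treatment), the highest and the lowest log2 CPM were compared with the rest of their group, and 2 stood apart by a gap of more than the critical share of the group's range. Chance alone sets about 1 in 20 groups apart in this way. Malat1 was lowest in secretome replicate 9, at log2 CPM 12.8514, or 7390 CPM against 9042 in the next mouse, a gap of 0.503 of the range. Rian was highest in secretome replicate 10, at log2 CPM 3.97172, or 15.6 CPM against 7.90 in the next mouse, a gap of 0.572 of the range. Without secretome replicate 10 the log2 fold change of Rian between the secretome ranges was -0.34 in place of -0.67, and without secretome replicate 9 that of Malat1 over all libraries was -0.06 in place of -0.10.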

How the results depend on the processing

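The calls on the 9 tested genes for the treatment did not change with RLE, upper quartile or total-count scaling, no filter, DESeq2, voom, a 10% false discovery rate, the replicate block or the ranges as a term, while counts over all genes did. Over all 20 libraries, where 1 gene passed, 190 passed with DESeq2 (64 higher), 3 with voom, 3 at a 10% false discovery rate, and 0 with total counts only, with the replicate block and with the 3 ranges as a term. In libraries 6 to 15, where 0 passed (1432 at an unadjusted p under 0.05), 11 passed without a filter, 36 with DESeq2 (11 higher) and 3 with voom. Scaling by total counts moved the median of all tested genes to -0.16 over all libraries and to -0.28 between the control ranges. With it 2072 genes passed between the control ranges in place of 803 (45 in place of 312 higher), 1 between the secretome ranges in place of 32 (2 with RLE), 1481 between secretome libraries 16 to 20 and control libraries 1 to 5 in place of 532, 33 for the difference of the treatment effect in place of 8, and 1310 for libraries 6 to 15 against the others in place of 673. In the third of these 1 of the 9 passed, Meg3 (log2 fold change -0.84, edgeR adjusted p = 0.00901).

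Some fold changes of the 9 genes that did not pass changed sign. Over all libraries these were Rian at -0.021 with the upper quartile, Neat1 (-0.036), Rian (-0.16), Kcnq1ot1 (-0.10) and Snhg1 (-0.087) with total counts, and, with the ranges as a term, Meg3 (0.081 in place of -0.31) and Mirg (0.11 in place of -0.21). In libraries 6 to 15 they were Malat1 (0.045) and Gas5 (0.0054) with voom, and for the difference of the treatment effect Neat1 (0.17) with total counts. Without the 2 libraries farthest from the median, Pearson r turned to -0.58 for Meg3 and Rian, -0.083 for Meg3 and Mirg, -0.016 for H19 and Igf2 and 0.37 for Kcnq1ot1 and Cdkn1c. The cause was not tested.

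Leaving out each library in turn gave 0 to 13 genes for the treatment over all libraries, 475 to 1018 between the control ranges, 1 to 56 between the secretome ranges, 72 to 823 between secretome libraries 16 to 20 and control libraries 1 to 5, and 1 to 9 for the difference of the treatment effect. The extremes came without control replicates 6 and 5, 8 and 2, 4 and 2, secretome replicate 6 and control replicate 5, and control replicates 4 and 1, in that order. The 9 had 0 calls for the treatment each time, 2 or 3 between the control ranges and 0 or 1 between the secretome ranges. Over all libraries the fold change ran from -0.063 to 0.18 for Neat1, -0.21 to 0.17 for Rian, -0.32 to 0.015 for Mirg, -0.033 to 0.064 for Kcnq1ot1 and -0.022 to 0.13 for Snhg1. In libraries 6 to 15 it ran from -0.046 to 0.042 for Malat1, -0.088 to 0.16 for Neat1, -0.035 to 0.16 for Meg3, -0.066 to 0.42 for Mirg, -0.11 to 0.018 for Gas5 and -0.032 to 0.16 for Snhg1. It ran from -0.54 to 0.22 for Mirg between the control ranges, from -0.29 to 0.063 for H19 between secretome libraries 16 to 20 and control libraries 1 to 5, and from -0.22 to 0.042 for Neat1 in the difference of the treatment effect.

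No pairing of mice by replicate number was seen, with correlations of same-numbered libraries from -0.24 to 0.22 and 2 of 10 pairs over 0.1. These used deviations from the treatment means, and same-numbered libraries lie in different ranges, so they cannot exclude a pairing. With the replicate block 0 of the 9 genes passed and H19 was at -0.52 (unadjusted p = 0.0499, edgeR adjusted p = 0.351). No paired analysis was possible within libraries 6 to 15 or between ranges because those groups share no replicate numbers. Miat, at 5 to 31 counts per library, did not pass the filter on low counts. Mirg did, at 5 to 33, and whether depth or the spread between mice sets its error was not tested.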
